A study of Mus musculus with 24 samples.

Results

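The open chromatin of cultured mouse periosteal cells was compared with and without induction of an active form of YAP, and 30509 sites were listed as different, of 30551 listed for both genotypes of the study together. These sites are every line of the authors' deposited table for YAPCA cells, in which doxycycline-treated (Dox) cells were compared with untreated cells. Of them 30496 had a false discovery rate (FDR) below 0.05 and are described here, while 13 were printed at exactly 0.05. Sites with the higher value in Dox cells are called gained and those with the lower value lost. Gained sites numbered 26605 and lost sites 3891.

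YAP is a transcriptional co-activator that the Hippo kinases restrain by phosphorylation, which holds it in the cytoplasm. It has no DNA-binding domain of its own and reaches DNA mainly through the TEAD factors, often at distal enhancers where AP-1 factors also bind. ATAC-seq reads open chromatin by letting a transposase cut and tag the DNA that nucleosomes leave free. Periosteal cells line the outer surface of bone and supply the cells that form the callus after a fracture.

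The YAPCA mice carried B6.C-tg(CMV-Cre)1Cgn/J, a Cre recombinase under a promoter active in most cells, tetO-YAPS127A, a tetracycline-responsive transgene for YAP with the S127A substitution that removes an inhibitory phosphorylation site, and Gt(ROSA)26Sortm1(rtTA,EGFP)Nagy/J, a Cre-dependent source of the Dox-responsive activator and of EGFP. Untreated YAPCA cells carried the same alleles, so both groups share them and differ in Dox only. The other genotype was wild-type C57BL6. Cells were primary periosteal cultures, and treated cells received 1 µM Dox in medium with serum and no vehicle was used. Animal age and animal number were not given in the sources used here, and expression of the alleles is not limited to a cell type by these labels. Each comparison of this genotype rests on 3 libraries a group, for ATAC-seq 6 libraries in all, which the labels call technical replicates. The authors' p-values and those computed here therefore measure only the spread between these libraries, which may be technical.

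A site's level is given in the authors' deposited table as a log2 concentration, the log2 of its mean normalised read number over the libraries of a group, and the log2 fold is the Dox value minus the untreated value. Coordinates are of the mm10 build. Values of single libraries are not part of this table, so no spread could be given, the depth of the ATAC-seq libraries is unknown, and no test of the sites was made here. The scaling behind the concentrations was not given in the sources used here, and the balance of gained and lost sites depends on it. For 1932 sites on chromosome 3 a further sheet of the same workbook carries the headings of both groups exchanged, with the same sign and size of fold at all of them. For 2321 sites on chromosome 1 another sheet, without headings, has the order of the main sheet, and the directions given here follow the main sheet.

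Promoters are shown first, because the TEAD and AP-1 motifs in them are referred to later. The sequences are the 250 bases before the annotated start in RefSeq's GRCm38.p6 (mm10) assembly, 5′ to 3′ on the gene's strand, with GGAATG or its reverse complement CATTCC (TEAD) and TGANTCA (AP-1) in capitals. Each lies at a listed site in YAPCA cells, and they were chosen after their values were seen. The first 3 are shown as gained promoters with TEAD motifs whose RNA also rose, namely Edn1 (chr13:42301226-42301475, plus strand), which encodes the vasoconstrictor endothelin, Radil (chr5:142545028-142545277, minus strand), a Rap effector in cell adhesion, and Slc20a1 (chr2:129206846-129207095, plus strand), a phosphate transporter.
Edn1: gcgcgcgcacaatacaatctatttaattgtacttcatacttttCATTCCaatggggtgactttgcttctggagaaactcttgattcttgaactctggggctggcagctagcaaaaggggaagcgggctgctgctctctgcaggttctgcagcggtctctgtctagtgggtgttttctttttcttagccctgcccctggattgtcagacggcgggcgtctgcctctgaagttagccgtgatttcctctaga
Radil: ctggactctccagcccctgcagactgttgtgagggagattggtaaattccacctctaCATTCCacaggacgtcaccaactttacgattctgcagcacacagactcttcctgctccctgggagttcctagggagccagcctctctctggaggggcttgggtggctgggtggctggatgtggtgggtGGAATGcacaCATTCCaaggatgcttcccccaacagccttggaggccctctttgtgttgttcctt
Slc20a1: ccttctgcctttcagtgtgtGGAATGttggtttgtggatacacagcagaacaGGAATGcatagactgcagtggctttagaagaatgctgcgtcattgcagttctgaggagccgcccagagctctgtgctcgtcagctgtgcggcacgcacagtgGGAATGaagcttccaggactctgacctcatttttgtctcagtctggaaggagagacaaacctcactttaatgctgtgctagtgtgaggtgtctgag
The next 4 belong to the YAP/TEAD target and Hippo lists, namely Vgll3 (chr16:65814939-65815188, plus strand), a co-factor of TEAD, Ankrd1 (chr19:36119845-36120094, minus strand), an ankyrin-repeat protein, Amotl2 (chr9:102717554-102717803, plus strand), an angiomotin that binds YAP, and Ccn1 (chr3:145649986-145650235, minus strand), a secreted matricellular protein.
Vgll3: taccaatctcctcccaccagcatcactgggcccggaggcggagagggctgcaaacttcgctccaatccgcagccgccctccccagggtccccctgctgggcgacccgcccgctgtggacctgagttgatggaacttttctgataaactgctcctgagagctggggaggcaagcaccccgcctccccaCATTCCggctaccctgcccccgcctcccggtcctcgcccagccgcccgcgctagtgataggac
Ankrd1: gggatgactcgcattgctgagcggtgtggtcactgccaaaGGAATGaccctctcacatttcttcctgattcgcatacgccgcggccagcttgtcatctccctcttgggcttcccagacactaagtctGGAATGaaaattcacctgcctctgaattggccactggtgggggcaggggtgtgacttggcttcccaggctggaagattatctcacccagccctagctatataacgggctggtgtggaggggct
Amotl2: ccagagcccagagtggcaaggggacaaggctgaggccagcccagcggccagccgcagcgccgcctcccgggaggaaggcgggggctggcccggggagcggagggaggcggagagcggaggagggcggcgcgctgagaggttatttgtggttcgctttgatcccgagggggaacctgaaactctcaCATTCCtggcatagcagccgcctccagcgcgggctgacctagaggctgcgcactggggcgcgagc
Ccn1: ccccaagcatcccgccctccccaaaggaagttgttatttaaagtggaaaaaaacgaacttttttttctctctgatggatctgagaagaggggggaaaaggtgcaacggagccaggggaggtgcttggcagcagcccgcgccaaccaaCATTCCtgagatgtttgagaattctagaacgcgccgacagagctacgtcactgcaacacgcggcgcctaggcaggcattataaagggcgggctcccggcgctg
The last 2 overlap lost sites, Nfatc4 (chr14:55824545-55824794, plus strand), a calcium-regulated transcription factor, and Rnf180 (chr13:105293015-105293264, minus strand), an E3 ubiquitin ligase, shown for its AP-1 motif, which is outside the site.
Nfatc4: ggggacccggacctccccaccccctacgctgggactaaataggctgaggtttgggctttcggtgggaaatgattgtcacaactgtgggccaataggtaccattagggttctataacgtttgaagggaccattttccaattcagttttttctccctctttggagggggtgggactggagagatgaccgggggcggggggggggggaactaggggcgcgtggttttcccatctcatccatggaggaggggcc
Rnf180: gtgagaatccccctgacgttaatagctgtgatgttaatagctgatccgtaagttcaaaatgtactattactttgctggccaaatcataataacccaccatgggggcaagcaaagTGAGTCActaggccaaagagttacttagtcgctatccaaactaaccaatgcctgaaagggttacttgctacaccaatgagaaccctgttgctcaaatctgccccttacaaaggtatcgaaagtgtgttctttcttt

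At these promoters the authors' deposited table gave the Edn1 site 9.09 without Dox and 9.80 with Dox, a log2 fold of 0.71 (FDR 4.53e-17), with its TEAD motif 207 bases before the start. The Radil site went from 10.08 to 10.77 (0.69, FDR 9.54e-27), and its 3 motifs stood 193, 65 and 55 bases before the start. Slc20a1 also had 3 motifs, and its site had a log2 fold of 0.55. The sites at Vgll3, Ankrd1, Amotl2 and Ccn1 had folds of 0.54, 0.43, 0.34 and 0.25, each with 1 motif or, at Ankrd1, 2. Promoters of the same lists without the TEAD motif also lay at gained sites and are not shown. They were Wwc1, with a larger fold (0.66), and Nf2 (0.36). Ptpn14 (0.25), not shown either, had 1 motif. Neither motif was found before Nfatc4, whose site went from 8.35 to 7.91, a fold of -0.44. Rnf180 had an AP-1 motif 136 bases before the start, and the lost site, with a fold of -0.66, covered only the end of the window farther from the start and not this motif.

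Most listed sites opened. Of called sites in the authors' deposited table, gained ones made up 87.2% and lost ones 12.8%. The table lists only sites that passed, and the number tested was estimated from the relation of its p-values to its FDR at 207792 (range of the estimate 206895 to 208648). On that estimate 14.7% of tested sites were called, 12.8% as gained and 1.87% as lost. The extremes of gain went further than those of loss. The median log2 fold of gained sites was 0.56 and that of lost sites -0.53, the largest gain was 5.78 and the largest loss -1.76. A fold above 1 was listed for 3277 gained sites (12.3%) and one below -1 for 200 lost sites (5.14%). Small changes made up much of the list, since 10724 gained sites (40.3%) and 1709 lost sites (43.9%) changed by less than 0.5. Lost sites became scarcer under a stricter rule. They were 6.19% of called sites at an FDR below 0.01 and 2.79% below 0.001.

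**Figure D1:**
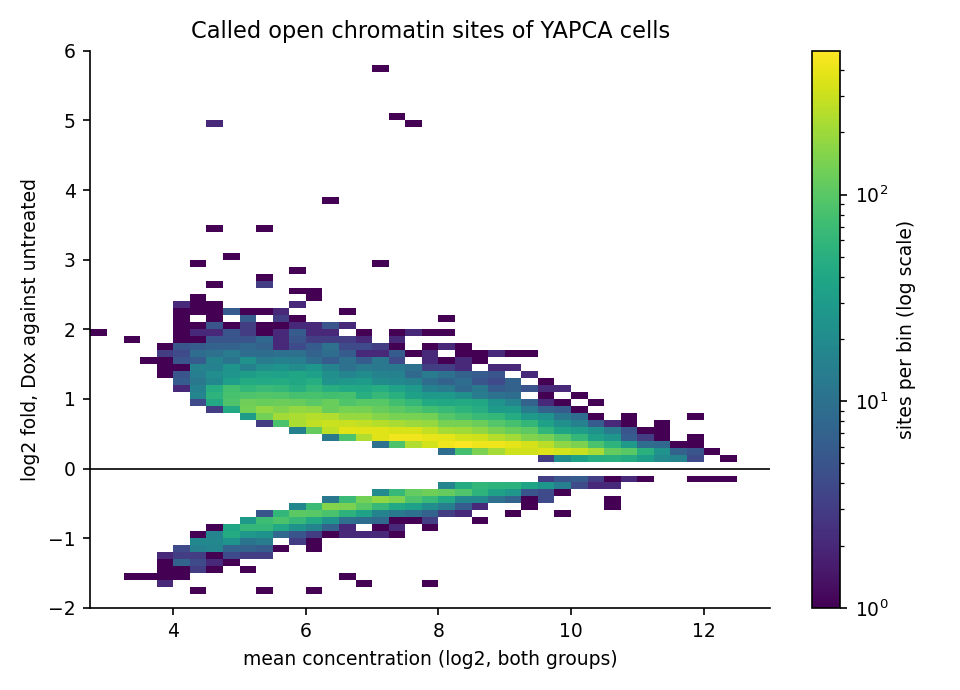
Density of the 30496 called sites of YAPCA cells by mean log2 concentration of both groups (horizontal axis) and log2 fold, Dox against untreated (vertical axis), from the authors' deposited table, with the number of sites per bin as colour on a log scale. Gained sites (26605) lie above 0 and lost sites (3891) below, folds narrow in both directions as concentration rises, and the lone bins near 5 and above are the X-chromosome sites.

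Gain and loss differed with the strength of a site. When called sites were divided into 4 groups of 7624 by mean concentration, lost sites made up 18.8% of the lowest group (2.97 to 6.44), 16.0% and 11.6% of the next ones, and 4.75% of the highest. Median gains shrank over the same groups, from 0.89 through 0.62 and 0.48 to 0.33, and median losses from -0.76 through -0.50 and -0.37 to -0.28. Of the 200 losses below -1, 197 were in the lowest group. Only sites that passed are listed, and a small fold at a weak site would seldom be among them. The median width of sites rose from 215 to 566 bases over the groups. Among the 1390 sites of at most 150 bases, 31.2% were lost.

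**Figure D2:**
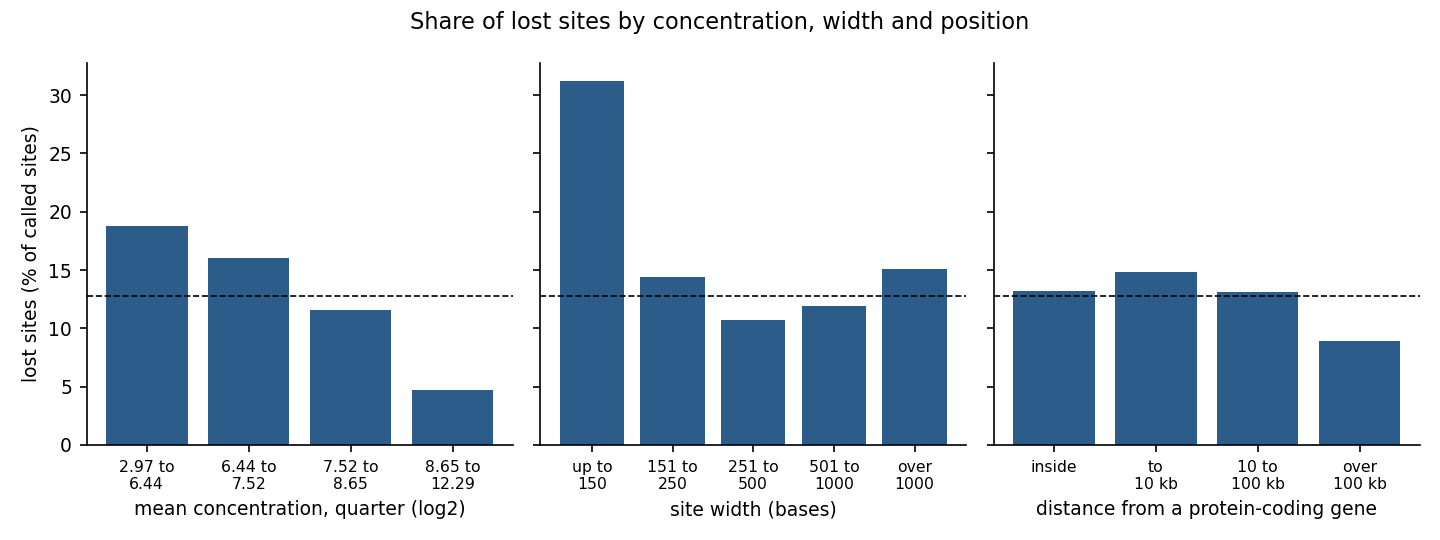
Bars give lost sites as a percent of called sites by group of mean log2 concentration, by site width in bases and by distance from a protein-coding gene, and the dashed line marks the 12.8% of all called sites. The share fell from 18.8% to 4.75% over the concentration groups, was 31.2% in sites of at most 150 bases and was lowest by position over 100 kb from a gene (8.9%).

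By position, the shares of gained and lost sites were close inside genes and differed at gene starts. Sites inside a protein-coding gene were 51.0% of gained and 53.1% of lost sites. Sites over 100 kb from any such gene were 14.8% of gained and 9.89% of lost sites. A start within 1 kb was found for 1230 gained sites (4.80%, exact Clopper-Pearson 95% interval 4.54 to 5.07) and 349 lost sites (9.26%, 8.36 to 10.2). These shares are of the 25631 gained and 3768 lost sites on chromosomes for which starts were at hand, and the interval treats sites as independent and covers counting error only. Those at starts differed in strength, since gained ones had a median untreated log2 concentration of 9.07 and a median fold of 0.31, and lost ones 7.29 and -0.49. By chromosome, the share lost ran from 5.68% on X and 8.60% on chromosome 12 to 17.4% on chromosome 11. Gained sites were the majority, and 44.6% of them had another gained site within 10 kb and 3.08% a lost one. Of lost sites 15.6% had another lost site within 10 kb and 19.0% a gained one.

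The largest gains formed a small group on the X chromosome with low values in untreated cells. The site at chrX:156235432-156235813 was listed in the authors' deposited table at 2.22 without Dox and 8.0 with Dox, a fold of 5.78 (FDR 4.01e-57). Its neighbour at chrX:156234622-156235393 went from 3.66 to 8.57 (4.91, FDR 3.95e-98), and chrX:156454880-156455713 went from 3.38 to 8.37 (5.0, FDR 1.56e-87). These and 3 narrower sites make 6 of the 9 sites in the table with a fold above 3. They lie outside coding genes, 610837 and 611452 bases from Ptchd1 and 705392 to 706779 bases from Phex, in subgroups 219066 bases apart. Another 13 called sites lie on X within 2 Mb, and all of them were gained, with folds of 0.23 to 1.57. Over the whole X chromosome 664 of 704 called sites were gained, so this is near the share of the chromosome.

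Some sites were named for a large fold among those that reached a log2 concentration of 7.52 in at least 1 group. A gained site could pass this limit by its Dox value alone. Among such sites inside genes, the gain at chr9:20499315-20500105 in Zfp266, a zinc finger gene, was largest, from 5.02 to 7.99 (2.97). A site in Dlc1, a RhoGAP that turns off RhoA at focal adhesions and a YAP target, rose in concentration from 6.64 to 8.80 at chr8:36663514-36663824 (2.15, FDR 9.86e-59). Further gains were listed in Aldh1a1, a retinaldehyde dehydrogenase, at chr19:20614250-20614773 (1.97), in Map2, which encodes a microtubule-associated protein, at chr1:66302479-66302817 (1.95), and in Cep170, a centrosomal gene, at chr1:176774438-176775052 (1.94). The strongest gained sites by level changed little. The site next to Sp1, a general transcription factor gene, went from 12.18 to 12.33 (0.14), and those nearest Eef1g, Khsrp, Sgk1, Pecr and Mtmr4 had folds of 0.16 to 0.24.

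The row with the most lost sites lay beside Egr3. Egr3 is an immediate-early zinc finger transcription factor induced by growth factor signals. A run is here a row of called sites on a chromosome that were all lost, with no gained site between them. There were 2932 such runs, of which 2253 (76.8%) were single sites and 18 had at least 5. The one with the most sites had 13 over 166 kb at chr14:69934653-70100372, across Pebp4, Egr3 and Bin3, with folds of -0.21 to -1.76 and a median of -0.76. It was not the widest, since a run of 7 sites spanned 303 kb. The next by number had 10 sites, and the row with the most gained sites had 120.

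The losses were deepest at 4 adjoining sites 1853 to 3324 bases from Egr3. In the authors' deposited table chr14:70084342-70084591 went from 7.25 to 5.72 (-1.53, FDR 3.25e-12) and chr14:70084674-70084823 from 6.76 to 5.0 (-1.76, FDR 2.21e-11). The widest of them, chr14:70085076-70085650, went from 8.48 to 6.83 (-1.65, FDR 1.57e-34), and chr14:70085781-70086094 from 7.49 to 5.87 (-1.62, FDR 1.18e-19). The next 2 sites toward Bin3 had folds of -0.89 and -0.76. Egr3 RNA was 239, 254 and 214 normalised read counts in the 3 untreated libraries and 135, 124 and 92.2 in the 3 Dox libraries, so the groups did not overlap. It fell by 1.02 on the log2 scale (SE 0.13, limma adjusted p = 2.12e-05). Bin3, at the far end of the run, had 546 ± 4.44 counts without and 516 ± 21.3 with Dox (SD, n = 3 each) and did not pass the test (limma adjusted p = 0.302). Pebp4 was too low to be tested.

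**Figure D3:**
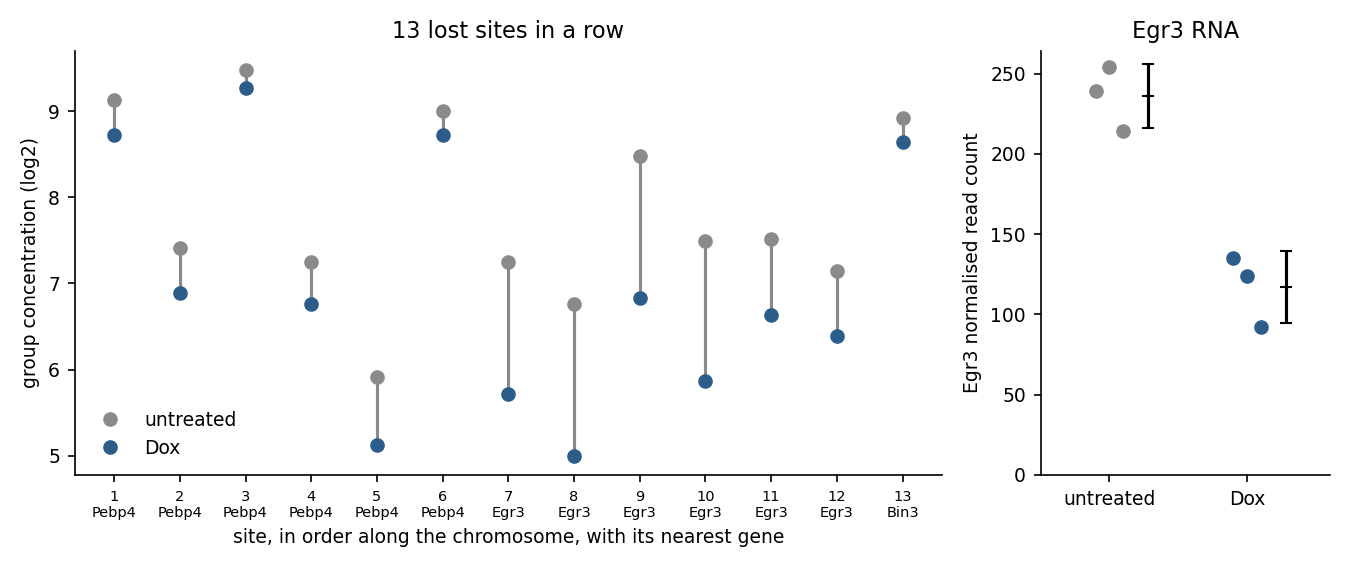
Left, the log2 concentration without Dox (grey) and with Dox (blue) of the 13 sites of the run with the most lost sites, in order along the chromosome with the nearest gene under each, from the authors' deposited table. Right, Egr3 RNA in normalised read counts, with points for the 3 libraries of a group and the mean ± SD beside them. The gap between the points of a site is widest at the first 4 sites nearest Egr3 (-1.53 to -1.76), and no Dox library reaches the untreated RNA values.

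A run of 10 sites over 210 kb at chr1:90718581-90928496 covered Col6a3, a collagen VI chain, with folds of -0.27 to -1.41. Col6a3 RNA was 28479.2 ± 315 normalised read counts without and 22824.9 ± 676 with Dox (SD, n = 3 each; log2 change -0.32, limma adjusted p = 1.36e-07). A run of 7 sites at chr11:94610580-94913997 ended at Col1a1, the main collagen I chain of bone, with folds of -0.26 to -0.53. Runs of 6 sites lay at Atic and Fn1 (fibronectin), in Nav1, a microtubule-binding gene, and at Mroh1 and Bop1. A run of 5 sites with folds of -0.38 to -0.67 lay around Ddit4, a stress-induced inhibitor of mTORC1. Other runs of 5 sites lay at Dleu7, Gucy1b2 and Fam124a, over 275 kb, at Arhgap39 and Rpl8, and at Ctdp1 and Nfatc1. RNA did not fall at every gene of these runs, since Atic rose by 0.10 and Bop1 by 0.14 (log2, limma adjusted p = 0.0157 and 0.0192).

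Outside these runs, the largest losses among sites that reached 7.52 in at least 1 group included chr11:108160006-108160503 in Prkca, a protein kinase C gene. It went from 7.70 to 6.73 (-0.97, FDR 1e-09) in the authors' deposited table. One 23465 bases from Themis3 had a fold of -0.90. Sites near Zfp661, H3f3b and Mmd had folds of -0.88, -0.76 and -0.76. Losses below -1.5 numbered 12 in all, and 4 of these are the sites at Egr3. The others included chr10:76707121-76707346 near Col6a1, another collagen VI chain, from 5.89 to 4.15 (-1.74, FDR 5.84e-07), and a site nearest Ank, a pyrophosphate and ATP exporter gene, at 4.91 without and 3.17 with Dox (-1.73). Lost sites of the highest levels included those at Bop1 (12.38 to 12.19), Egr1 (11.87 to 11.66), Nfatc1, Hhipl1 and Rara, with folds of -0.16 to -0.20.

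Called sites were spread over 9382 nearest protein-coding genes, with a median of 2 a gene. Of these genes 6528 had gained sites only, 888 lost sites only and 1966 both. The 610 genes with at least 10 sites held 29.1% of all called sites. The most gained sites were nearest Myc, a growth-promoting transcription factor gene, with 45 gained and 5 lost, none inside the gene and the farthest 747171 bases away. Cited2, a transcriptional co-regulator gene, had 42 gained and 0 lost sites. Then came Rbms3 with 36, Adamts5, an aggrecanase gene, and Thbs1, a matricellular gene, with 35 each, Dlc1 with 34, Marcks with 33 and Lpp with 32 gained sites. Genes in wide gene-poor regions collect more nearest sites, and no distance limit was set for these counts.

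RNA rose at 6 of these 8 genes, and at 14.3% of all 13477 genes tested. Of the 505 genes with 5 or more gained and 0 lost sites over the gene and 10 kb to either side, 37.0% rose. Adamts5 RNA was 3676.5, 3734.3 and 4259.6 normalised read counts in untreated libraries and 8716.5, 8671.4 and 10062.2 in Dox libraries, a rise of 1.23 (log2, SE 0.055, limma adjusted p = 2.35e-10). Dlc1 RNA was 3882.1, 3996.2 and 3667.2 without and 7534.6, 7693.5 and 7622.3 with Dox (0.99, SE 0.032, limma adjusted p = 1.31e-11). Every Dox library stood above every untreated library for both genes. Smaller rises were seen for Thbs1 (0.39), Myc (0.30), Cited2 (0.28) and Marcks (0.17, limma adjusted p = 0.00676). Rbms3 (0.09) and Lpp (0.08) did not pass the test. These are bulk RNA samples, in which fewer cells of a type and less RNA per cell cannot be told apart.

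Genes with the most lost sites also had gained ones. Ank had 8 lost and 5 gained sites, and its RNA fell from 4782.2 ± 312 to 3527 ± 184 counts (SD, n = 3 each; log2 change -0.44, limma adjusted p = 1.78e-06). Fn1 and Sox9 each had 7 lost and 9 gained sites. Sox9 encodes the factor that commits cells to cartilage. Its RNA fell from 437 ± 23.3 to 292 ± 36.9 counts (-0.59, limma adjusted p = 8.74e-05). Sox5, a partner of Sox9, had 6 lost and 9 gained sites, and its RNA was 17.6, 20.4 and 32.4 counts without and 10.1, 8.98 and 7.87 with Dox (-1.25, limma adjusted p = 0.00649). Nav1 had 6 lost and 3 gained sites and a fall of 0.40 in log2 RNA. The opposite was seen at Chst11, a chondroitin sulfotransferase gene with 6 lost and 3 gained sites, whose RNA rose by 0.21 (limma adjusted p = 0.00418). That call was lost with DESeq2 (adjusted p = 0.0502). Rad51b (22 gained, 6 lost) and Mast4 (12 gained, 6 lost) did not pass the RNA test.

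The deposited RNA-seq table of the same cells allowed the sites to be set beside RNA. Of 13477 genes tested, 1931 (14.3%) rose and 1826 (13.5%) fell with Dox. Yap1 itself, the mouse gene, had 5134.5, 4945.1 and 5042.0 normalised read counts without and 4732.1, 4765.8 and 4895.6 with Dox. It did not pass the test (-0.07, limma adjusted p = 0.0697), and whether transcripts of the transgene count toward this gene was not given in the sources used here. Genes were then sorted by called sites within 10 kb of their start. Of 2855 genes with gained sites only, 24.2% rose (exact Clopper-Pearson 95% interval 22.6 to 25.8) and 11.2% fell. Of 586 genes with lost sites only, 6.83% rose and 25.3% fell (21.8 to 29.0). Where both kinds were present (214 genes) 22.4% rose and 19.2% fell. Of 6263 genes with neither 11.6% rose and 14.6% fell.

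The shift of a typical gene was small. The median log2 RNA change was 0.036 for genes with gained sites only, -0.069 for genes with lost sites only and -0.011 for genes with neither. Taken per Dox library against the untreated mean, it was 0.037, 0.036 and 0.041 for the first class and -0.082, -0.070 and -0.061 for the second. By distance within 10 kb, the shares were as follows. With a gained site within 1 kb 27.9% of genes rose, and with gained sites at 1 to 10 kb only 22.0%. With a lost site within 1 kb 23.3% fell, and at 1 to 10 kb only 26.7%. Among the 9918 tested genes with a start at hand, 49.1% of the 1502 that rose had a gained site within 10 kb of the start. The share was 25.4% of the 1420 that fell and 30.9% of all 9918. For lost sites the shares were 5.86%, 13.3% and 8.07%.

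Among genes with called sites of 1 direction only, those with more sites moved more often. Sites were counted over the gene and 10 kb to either side. The 1314 tested genes with both kinds were left out of these classes, and of them 15.0% rose and 23.4% fell. The share that rose was 9.97% with 0 sites of either kind, 15.2% with 1 gained site and 22.4% with 2. It was 29.5% with 3 to 4 and 37.0% with 5 or more (505 genes in the last class). The share that fell over the same classes went from 13.6% to 7.33%. With 1 lost site 19.4% of 669 genes fell, with 2 lost sites 34.0% of 103, and with 3 to 4 lost sites 64.0% of 25. The 2 genes with 5 or more lost sites and 0 gained ones both fell. Gene length was not taken into account.

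**Figure D4:**
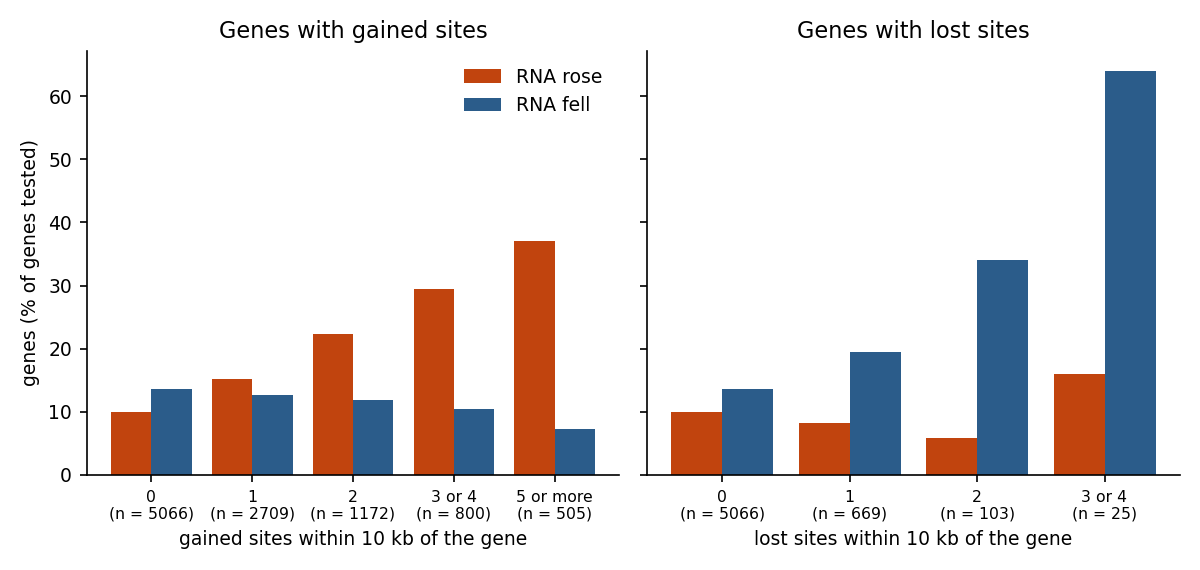
Percent of RNA-tested genes that rose (orange) or fell (blue) with Dox, by the number of gained sites (left) or lost sites (right) over the gene and 10 kb to either side, with the number of genes under each pair of bars and classes under 20 genes left out. Genes with both kinds of site are left out, and the class of 0 holds genes with neither. Rises went from 9.97% with 0 sites to 37.0% with 5 or more gained sites, and falls from 13.6% with 0 to 64.0% with 3 or 4 lost sites, the last over 25 genes.

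Among genes with a site within 10 kb of the start, the clearest rises by adjusted p included feedback parts of the Hippo pathway. Lats2, the kinase that phosphorylates YAP and is itself a YAP target, had 2919.9, 2992.8 and 2907.3 normalised read counts without and 4757.5, 4802.7 and 4785.4 with Dox (0.70, SE 0.028, limma adjusted p = 1.11e-10). It had 2 gained sites, the larger 7680 bases upstream at chr14:57753636-57753972, from 7.79 to 8.86 (1.07, FDR 1.64e-15). Vgll3 rose from 9067.9 ± 167 to 13754 ± 179 counts (SD, n = 3 each; 0.60, limma adjusted p = 1.44e-10) with 5 gained sites. Snx30, a sorting nexin, rose by 1.02 with 3 gained sites of at most 0.54. Cavin2, a caveolar coat protein listed as Sdpr, rose by 0.65 and Prkci, an atypical protein kinase C, by 0.62, with 2 gained sites each. Adm, which encodes adrenomedullin, went against its site, since RNA rose from 1820.5 ± 43 to 3063.1 ± 88 counts (0.75) while the site 542 bases from the start was lost (-0.44).

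Of the 6 clearest falls, 4 had a gained site near the start and 2 had lost sites only. Ddit4 RNA was 1042.1, 959 and 1017.4 normalised read counts without and 340, 347 and 385 with Dox, so that it fell by 1.49 on the log2 scale (SE 0.06, limma adjusted p = 1.11e-10), with lost sites of -0.56 and -0.39. Plxnd1, a semaphorin receptor, fell by 0.73 with a lost site of -0.31. The other 4 fell although a gained site stood within 10 kb. Lgr4, an R-spondin receptor, fell by 0.75, from 4956.9 ± 187 to 2942.9 ± 91.7 counts (SD, n = 3 each), with a site 14 bases from its start that went from 10.04 to 10.35 (0.31). Sned1, a matrix gene, fell by 0.60 and its site had a fold of 0.42. Thbs2, a thrombospondin, fell by 0.43 (site 0.30), and Sqstm1, an autophagy receptor, fell by 0.41 (site 0.32). The 6 falls were picked for the smallest limma adjusted p. Their low values (at most 6.27e-09) and non-overlapping groups of libraries therefore follow from the choice.

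Genes were next grouped by role, with each called site assigned to the nearest gene. Over all coding genes 42.9% had a called site, and over coding genes tested in RNA 55.9%. Of called sites 12.8% were lost, and the median fold was 0.51. Over all 13477 genes tested in RNA 14.3% rose and 13.5% fell, the shares to set beside the counts of each list. The list counts include named genes whose call was lost under an alternative fit, given in the last section. All 22 YAP/TEAD targets of the list had sites, 257 gained and 12 lost (4.46% lost), with a median fold of 0.56. In RNA 13 of the 22 rose and 2 fell. Ccn2, a matricellular growth factor partner listed as Ctgf, had 16 gained and 0 lost sites, the largest at chr10:24533910-24534167 from 4.30 to 6.10 (1.80, FDR 0.0118). Its RNA was 41522.9, 41900.8 and 33646.1 normalised read counts without and 69993.3, 68744.6 and 62697.3 with Dox (0.79, limma adjusted p = 9.98e-08). Amotl2 had 25 gained sites and an RNA rise of 0.43, Ccn1 13 and 0.60, Ankrd1 7 and 0.62, and Wwc1, a scaffold that activates the Lats kinases, 11 and 0.82. Asap1, an Arf GTPase-activating gene, had 26 gained sites with a largest fold of 2.06 (5.35 to 7.41), but its RNA did not pass the test (0.05, limma adjusted p = 0.22).

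Of the 21 Hippo components 18 had sites, 123 gained and 9 lost (6.82%), and 12 of the 21 rose in RNA while 1 fell. Amot, the X-linked angiomotin that binds YAP, had 8 gained sites, the largest at chrX:145468704-145469132 from 7.29 to 8.90 (1.6, FDR 3.38e-43). Its RNA was 1323.6, 1297.8 and 1282.0 normalised read counts without and 2450.1, 2307.1 and 2427.6 with Dox (0.88, limma adjusted p = 1.44e-10). Stk4, an upstream kinase, had a single site at chr2:164077010-164077403 from 7.48 to 9.0 (1.51) and an RNA rise of 0.43. Wwc2 had 13 gained and 2 lost sites and rose by 0.43. Of the DNA-binding partners, Tead1 had 14 gained sites and rose by 0.35, Tead4 had 2 and rose by 0.85, and Tead2 had 0 sites and fell by 0.22. Yap1 had 2 gained sites, of 0.54 and 0.66. Of the 12 AP-1 factors 8 had sites, 17 gained and 2 lost, and 3 rose while 4 fell in RNA. Fos rose by 0.54 and Mafk by 0.66, whereas Jun fell by 0.26 although its 3 sites were gained, the largest by 1.10.

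Among lists with at least 10 sites, the adipogenic, ATF4 stress and cartilage lists had the highest shares of lost sites. No test was made of the shares between lists. The adipogenic list had 24 gained and 13 lost sites (35.1% lost), and 5 of its 10 tested genes fell while 1 rose. Zfp423, a preadipocyte commitment factor, had 1 gained and 4 lost sites, and its RNA fell from 87.2, 77.8 and 85.8 to 31.3, 42.9 and 42.7 normalised read counts (-1.09, limma adjusted p = 0.000155). Cebpb, an early adipogenic factor, fell by 0.60 with 5 gained and 2 lost sites, and Cebpa by 0.47 with 1 of each. Pparg is another of the 5 falls (-0.16, limma adjusted p = 0.0494). It did not pass without untreated replicate 1, 2 or 3 or Dox replicate 1 or 3 (limma adjusted p of 0.0748 to 0.198). Nor did it pass with DESeq2 (adjusted p = 0.131). Of ATF4 stress targets, 15 sites were gained and 7 lost (31.8%), and 7 of 12 tested genes fell and 0 rose. These included Ddit4, Trib3, a pseudokinase (fell by 0.76, with 1 gained site), and Ddit3, a pro-apoptotic factor (fell by 0.65, with 0 sites). Slc7a11, the cystine transporter, fell by 0.40, and its largest change was a site at 4.57 without and 3.33 with Dox (-1.24). The cartilage list had 40 gained and 16 lost sites (28.6%), with 13 of the lost ones at Sox9 and Sox5, and 4 of 10 tested genes fell while 1 rose. That rise, of Col11a1 (0.13, limma adjusted p = 0.03), did not pass the test without untreated replicate 1 or 2 or Dox replicate 2 or 3 (limma adjusted p of 0.0576 to 0.165), which leaves 0 rises in the list.

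The osteoblast list had 43 gained and 11 lost sites (20.4%), and 6 of 13 tested genes fell while 0 rose. Col1a1 RNA was 317286.8, 310372.0 and 293675.4 normalised read counts without and 221294.3, 222276.5 and 223257.4 with Dox (-0.47, SE 0.029, limma adjusted p = 8.90e-09), with 5 gained and 2 lost sites assigned to it. Sp7, the osteoblast factor osterix, fell by 1.01, from 327 ± 11.5 to 162 ± 7.84 counts (SD, n = 3 each, limma adjusted p = 1.55e-07) with 0 called sites. Dlx3, a homeobox gene, fell by 1.02 and Spp1 (osteopontin) by 0.31, and all their called sites, 5 and 3, were gained. Runx2, the master factor of bone, had 6 gained and 1 lost site and did not pass the RNA test (-0.07, limma adjusted p = 0.269). The periosteal and progenitor list had 60 gained and 13 lost sites (17.8%), and 8 of 16 tested genes fell while 3 rose. Of these rises, that of Eng (0.10) did not pass without untreated replicate 1 or 3 or Dox replicate 2 or 3 (limma adjusted p of 0.0583 to 0.111). Pdgfra, a receptor of mesenchymal progenitors, fell by 0.47 with 2 gained and 1 lost site.

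Matrix genes had many sites of both kinds. All 23 collagen and matrix genes had sites, 182 gained and 26 lost (12.5%), and 10 of 21 tested genes fell and 3 rose. Col6a1 had 3 sites, all lost, and its RNA fell by 0.46 on the log2 scale, with 17052.1 ± 687 counts without and 12422.5 ± 730 with Dox (SD, n = 3 each, limma adjusted p = 1.50e-07). Vcan, a large proteoglycan, fell by 0.39 with 2 gained and 2 lost sites, and Col3a1 fell by 0.25 although its 7 sites were all gained. Lox, the collagen cross-linking oxidase, had 8 gained sites and did not pass the RNA test (0.03). Genes of the matrix protease list had 88 gained and 5 lost sites (5.38%), and 5 of 15 rose and 4 fell. Actin and adhesion genes had 83 gained and 8 lost sites (8.79%), and 5 of 20 rose and 4 fell in RNA. Over all genes tested 14.3% rose and 13.5% fell. Cald1, which binds actin and tropomyosin, had 17 gained sites, the largest from 6.83 to 8.25 (1.42), and did not pass the RNA test (0.02).

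**Figure D5:**
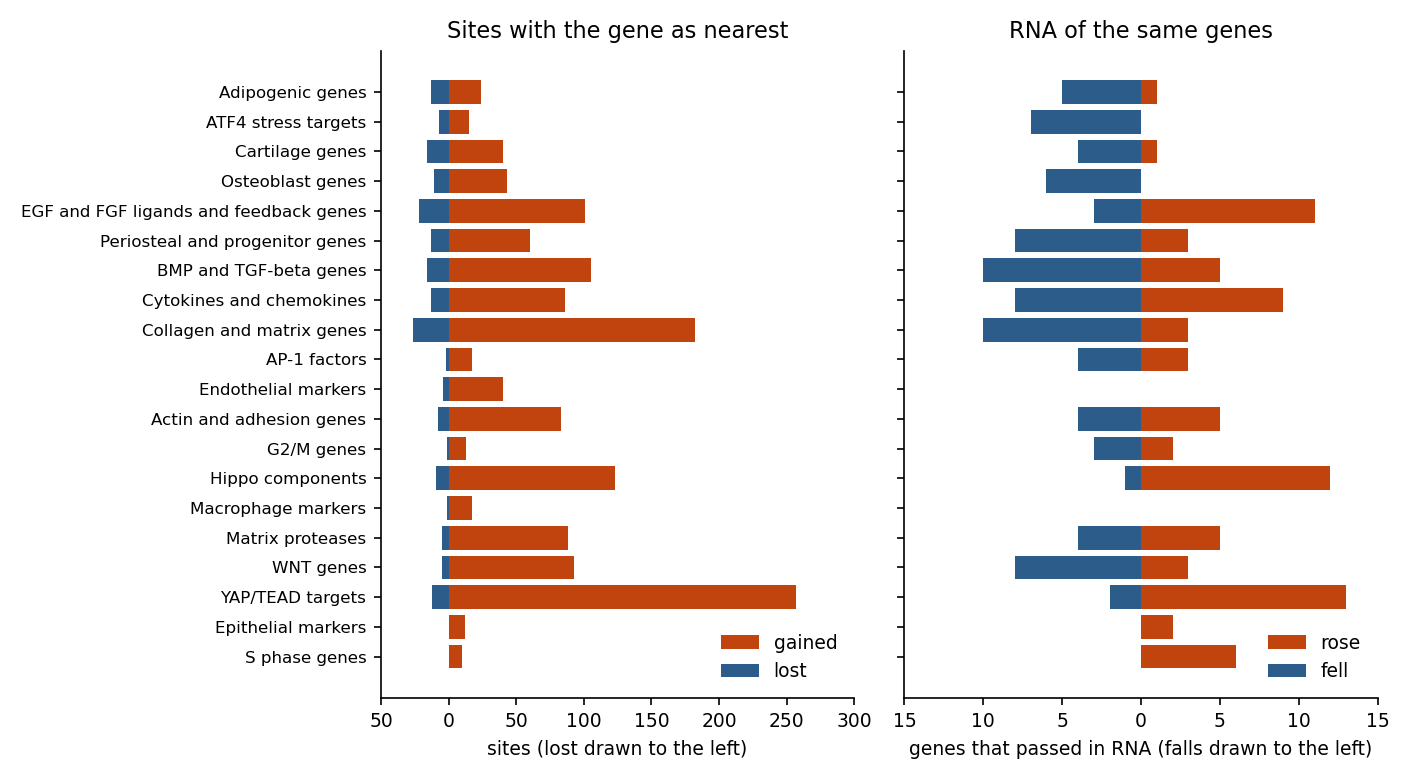
Left, numbers of gained (orange, to the right) and lost (blue, to the left) called sites with a gene of each list as nearest, for lists with at least 10 sites ordered by the share lost. Right, numbers of genes of the same lists that rose or fell in RNA, where 14.3% of all genes tested rose and 13.5% fell. YAP/TEAD targets had 257 gained and 12 lost sites with 13 genes up and 2 down, and adipogenic genes, with the highest share lost (35.1%), had 24 and 13 sites with 1 gene up and 5 down.

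Signalling genes differed between pathways. EGF and FGF ligands and feedback genes had 123 sites, of which 22 (17.9%) were lost, and 11 of 21 tested genes rose and 3 fell. Ereg, an EGF receptor ligand, rose from 1046.7 ± 110 to 2440.2 ± 135 normalised read counts (SD, n = 3 each; 1.22, limma adjusted p = 8.15e-10) with 4 gained sites, while Spry1, a feedback inhibitor, rose by 1.27 with 0 called sites. Fgfr2 held the largest gain of that list, from 4.44 to 6.35 (1.90, FDR 1.36e-11) in the authors' deposited table. Egr3 belongs to this list too, so its lost sites are counted there. Cytokines and chemokines had 86 gained and 13 lost sites (13 of 99), and 9 of 18 rose and 8 fell. Csf1, the macrophage growth factor, rose by 0.50 with 19 gained and 2 lost sites. Ccl2, a monocyte chemokine, rose by 0.67, and Tnfsf11 (RANKL), the osteoclast differentiation factor, had 123, 94.4 and 84.4 counts without and 162, 171 and 168 with Dox (0.74, limma adjusted p = 0.000498) with 11 gained sites. Edn1 RNA was 107, 112 and 106 counts without and 261, 257 and 227 with Dox (1.19, limma adjusted p = 1.87e-07). Vegfa fell by 0.45 with 4 gained and 2 lost sites.

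WNT genes had 93 gained and 5 lost sites (5.10%), yet 8 of 20 tested genes fell and 3 rose. Fzd1, a WNT receptor, fell by 0.34 with 9 gained sites, Sfrp2, a secreted WNT antagonist, fell by 0.95, and Dkk2, another antagonist, rose by 0.75 with 13 gained sites. BMP and TGF-beta genes had 105 gained and 16 lost sites (13.2%), and 10 of 22 fell and 5 rose. Tgfbr3, a co-receptor, fell by 0.38 with 5 gained and 4 lost sites, the deepest at -1.24. S phase genes had 10 gained and 0 lost sites, at 6 of 18 genes, and 6 of the 18 rose and 0 fell. G2/M genes had 13 gained and 1 lost site, and 2 of 18 rose and 3 fell, near the 14.3% and 13.5% of all genes tested. With sites over 100 kb from the gene left out, the share lost was 3.49% for YAP/TEAD targets, 36.1% for adipogenic and 41.2% for ATF4 stress genes, the last 2 in the reverse of their order over all sites, and S phase genes had 0 of 10.

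Markers of other cell types were looked at in the same RNA libraries. Periosteal and progenitor genes, of which 16 of 18 had a mean of at least 10, summed to 202104.7 to 204343.4 normalised read counts in untreated libraries and 188110.3 to 193928.7 in Dox libraries. Endothelial markers (3 of 6 at a mean of at least 10) summed to 67.5 to 89.8 without and 84.8 to 128 with Dox, and macrophage markers (4 of 6) to 399 to 459 and 420 to 422. Epithelial markers (2 of 6) summed to 478 to 532 without and 731 to 801 with Dox, mostly through Krt19, a keratin, whose RNA rose by 0.63, and Krt7 rose by 1.23. Their 12 called sites were all gained. Osteoclast markers (3 of 6, with Dcstamp at 0 in every library) summed to 522 to 610 without and 324 to 363 with Dox, mostly through Itgb3, an integrin gene that fell by 0.77. Muscle markers (1 of 6) summed to 1034.3 to 1188.4 without and 967 to 1040.8 with Dox. The part of such cells in the site changes was not tested.

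The promoter motifs shown above were counted over all promoters of RefSeq's table on chromosomes it covers, in windows from 250 bases before to 50 after a start. The TEAD motif GGAATG, on either strand, stood in 195 of 1044 windows that overlap a gained site (18.7%). It stood in 34 of 103 windows at gained sites with a fold above 0.5 (33.0%), in 17.1% of those with smaller gains, in 19 of 113 windows at lost sites (16.8%) and in 13.6% of all 21263 windows. At least 2 TEAD motifs stood in 11.7% of windows with gains above 0.5 and in 1.14% of all windows. Motifs of other factors counted in the same way also differed between windows at gained sites and all windows. More frequent were SP/KLF (70.3% against 46.2%), NF-Y (49.5% against 38.2%), ETS (15.3% against 11.6%), E2F (8.91% against 5.95%) and CTCF (6.23% against 4.12%). Less frequent were RUNX (11.2% against 15.0%) and CEBP (7.18% against 10.2%), and motifs not named here went both ways. The AP-1 motif TGANTCA, which reads the same on both strands and whose ends TG and CA can overlap those of a TEAD motif, stood in 6.13% of windows at gained sites, 15.9% at lost sites and 6.99% of all windows. These counts ask only that a window overlaps a site, whether or not the motif lies in it. Of windows wholly inside a site, a rule chosen after seeing the data, 17.8% of 623 at gained and 22.6% of 31 at lost sites held the TEAD motif, so the order of gained and lost turned. Median GC content was 64.0% in windows at gained sites, 61.7% in those with gains above 0.5, 54.3% in windows at lost sites and 56.3% over all windows. A match describes letters and not binding.

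RNA was then set beside site and motif together. Of 165 tested genes with a gained site and a TEAD motif in the window, 37.0% rose and 10.9% fell, against 25.2% and 10.5% of 725 genes with a gained site and no TEAD motif. Of 90 genes with a lost site over the window 6.67% rose and 31.1% fell. Without a called site, 14.6% of genes with the motif and 14.3% of those without it rose. These shares were compared without a test. Across 958 genes the fold of the site over the window and the log2 RNA change had a Pearson r of 0.29 and a Spearman rho of 0.27, as a description over genes, which are not independent replicates.

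Dox alone was given to wild-type cells in the same design, with 3 ATAC-seq libraries a group. Their deposited table gives its values without headings, and they were read in the order of the main YAPCA sheet, so the wild-type directions rest on that order. It lists 42 sites, 0.161% of an estimated 26061 tested, with 36 gained and 6 lost and folds of -0.42 to 0.44. For YAPCA cells an estimated 207792 sites were tested, so the shares called are of unlike sets of sites. All 42 wild-type sites were strong, since the lowest mean concentration was 8.91, and 6152 called YAPCA sites are at or above that level. Of the 42 sites 4 overlap a called YAPCA site by at least 1 base, which is 9.52% of the wild-type list and 0.0131% of the YAPCA list. The share of the YAPCA list is limited by the length of the wild-type list. At Flrt2, an adhesion gene, both genotypes gained (0.35 in wild type, 0.33 in YAPCA cells), and at Egr1, an immediate-early factor, both lost (-0.29 and -0.20). At the sites nearest Sgk1 and Irs2 the wild-type folds were -0.25 and -0.26 and the YAPCA folds 0.36 and 0.23. The difference between genotypes was not tested, since only group means are listed.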

How the data were processed

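Periosteal cells from mice of 2 genotypes were profiled by ATAC-seq and RNA-seq with and without 1 µM Dox, in 8 groups of 3 libraries. For each site the authors deposited a log2 concentration per group, the log2 fold between groups, a p-value and an FDR, all made with DiffBind according to the headers. The deposited RNA-seq signal is a normalised read count per gene and library. A log2 fold and a p-value per gene, deposited beside it by the authors, were not used. Wild-type sites, and a sheet of chromosome 1, were deposited with all values of a site in a text field without headings, which was split in the order of the main sheet. The submitters' processing notes name Bowtie2, SAMtools, MACS2, bedtools, DiffBind and HOMER for mm10 and HISAT2, Picard, featureCounts and DESeq2. Versions, transposase shift, scaling of concentrations and pooling before peak calling were not given in the sources used here.

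Each RNA column proved to be whole reads divided by 1 factor (100% of values within 0.01 read), between 16351891 and 28734643 reads a library, setting the precision of a value. Columns of per-sample values without a sample numbered 0. Replicate libraries differed by more than sampling noise (chi-square per degree of freedom 1.79 to 3.354). A pseudocount of 1 was added to RNA values before the log2, and limma 3.58.1 (R 4.3.3) was fitted with an intensity trend, two-sided, at a Benjamini-Hochberg adjusted p below 0.05. The 13477 genes with a mean of 10 or more were tested, and the pseudocount makes changes of low genes look smaller. The edgeR test planned for counts was run on the recovered reads as an alternative (edgeR 4.0.16, with 3824 genes called). DESeq2 1.42.0 on the same reads called 2843 of 12691 genes, fewer than the 3757 of 13477 called with limma. The fit was checked on simulated data.

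Sites were assigned to the nearest protein-coding gene of RefSeq's GRCm38.p6, the assembly of mm10, with Python 3.11.15, pandas 2.3.3 and numpy 2.4.6. Promoter windows from RefSeq held 17492 of 21887 coding genes. A motif search at site centres needs a genome and was not run. Named sites are the 8 gained and 8 lost with the largest fold among sites whose higher group concentration was at least the median of 7.52. The 6 sites of highest mean concentration in each direction were named too. Named genes are the 8 with most gained and most lost sites, up to 5 members a list by fold, and the 6 rises and 6 falls in RNA with the smallest adjusted p, with other members as examples. A few sites and genes picked by this rule are left unreported. The runs, the sites below -1.5 and the group on X were named after their values were seen. The 22 lists hold 338 genes, of which 337 matched. Members and lists were chosen with earlier results of these data known.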

Additional observations from a re-analysis of the deposited data

How the results depend on the processing

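The number of sites depended on the threshold. Gained sites numbered 11801 at an FDR below 0.001, 3415 at an absolute log2 fold of at least 1 and 14021 at or above the median concentration, which was 97.2%, 94.0% and 91.8% of called sites. Lost sites numbered 1204 at an FDR below 0.01, 339 below 0.001, 217 at an absolute fold of at least 1 and 1247 at or above the median concentration (6.19%, 2.79%, 5.97% and 8.17% of called sites). Gained and lost sites at a gene start were 3.76% and 5.68% within 500 bases and 6.58% and 11.7% within 2 kb. RNA counts stayed within 1.5 times the reported ones under every alternative, with 1481 to 1807 rises and 1392 to 1776 falls when a library was left out. Deviations of same-numbered libraries were little correlated (-0.001, 0.036 and 0.085, against -0.075 to 0.051 for other pairs). With 3 libraries a group this cannot tell whether the numbers pair the libraries. A replicate block gave 2258 rises and 2092 falls, against 1931 and 1826 without it. Of genes with gained sites only, 28% rose with sites within 1 kb of the start, 18.9% within 50 kb, 21.5% by nearest gene, 21.2% over the gene span, which was chosen after seeing the data, 21.2% at a mean of at least 1, 26.9% at a mean of at least 100, 20.1% with DESeq2, 27.2% with the replicate block and 19.7% to 22.8% without 1 library. The share of all genes that rose moved as well, to 12.1% with DESeq2 and 17.6% with the replicate block. Of genes with lost sites only, 19.3% fell with sites within 50 kb and 21.1% to 26.2% without 1 library. The 4 wild-type overlaps were the same with a larger overlap required. With windows wholly inside a site, chosen after seeing the data, the TEAD motif stood in 17.8% at gained and 22.6% at lost sites, against 18.7% and 16.8%, and AP-1 in 6.42% and 16.1%. Among 113 named genes, 10 lost their call under at least 1 alternative, Chst11 only with DESeq2 (adjusted p = 0.0502). Fat4, Col11a1, Pparg, Eng, Nrg1, Fgfr2, Mki67, Acta1 and Diaph3 lost it without 1 library (log2 changes of -0.18 to 0.19). Of these, Fat4, Pparg, Nrg1, Eng, Acta1 and Diaph3 lost it with DESeq2 too (adjusted p of 0.0609 to 0.262). Direction reversed at 9 named genes, none of which passed the RNA test. Without 1 library, log2 changes ran from -0.02 to 0.05 for Rad51b, -0.12 to 0.02 for Csf1r, -0.31 to 0.26 for Klf15, -0.30 to 0.08 for Phex, -0.13 to 0.38 for Rspo3, -0.07 to 0.18 for Sox6 (-0.00 with edgeR), -0.01 to 0.05 for Spred1, -0.01 to 0.02 for Thy1 and -0.03 to 0.00 for Tpx2. The cause was not tested. Motif searches at site centres and in whole sites were not run. No test of the sites against another scaling was possible from group means, and the depth that limits them is unknown.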
